A study of Mus musculus with 50 samples.

Results

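The expression of 10 cytokine and receptor genes of the interleukin-1 (IL-1) and interleukin-6 (IL-6) families was examined in bulk RNA sequencing of mouse sarcomas. The 10 genes were chosen by symbol, as Il1a, Il1b, Il1rn, Il1r1, Il1r2, Il6, Il11, Lif, Osm and Osmr, out of 37469 genes in the count table. All 10 passed the filter on low counts that left 19327 genes for testing. The samples were 48 p53/MCA sarcomas and 2 single libraries of a line named 402230, all of the strain 129/SvJae.

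Primary tumors were started in p53FL/FL mice, 6 to 10 weeks old, whose floxed Trp53 alleles were deleted by an adenovirus carrying Cre, followed by the carcinogen 3-methylcholanthrene (MCA), both given into the gastrocnemius muscle. Transplant tumors, labelled allografts, grew in the same muscle of syngeneic mice from 50000 injected cells of line 402230, so all 16 transplants came from 1 line. In comparisons of transplants with primary tumors, traits of this line and of the transplant model therefore cannot be told apart. At a volume of about 150 mm3, mice received 200 µg of the anti-PD-1 antibody muDX400 or an isotype control, followed by 0 or 20 Gy to the hind limb. Tumors were harvested 3 days later. Each of the 4 treatments (0 Gy with isotype, called untreated below, 0 Gy with anti-PD-1, 20 Gy with isotype and 20 Gy with anti-PD-1) had 8 primary and 4 transplant libraries. The study asked how transplants and primary tumors differ under this treatment. Labels named each tumor separately, and nothing in them paired libraries across groups.

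IL-1α and IL-1β are inflammatory cytokines that signal through the receptor IL-1R1 and its partner IL-1RAP. The pathway carries its own brakes, a receptor antagonist encoded by Il1rn and a decoy receptor encoded by Il1r2, which binds IL-1 without signaling. IL-6, IL-11, leukemia inhibitory factor (Lif) and oncostatin M (Osm) signal through receptors that share the subunit gp130, encoded by Il6st, and activate STAT3. IL-1 signaling through NF-kB and AP-1 is a known inducer of several of these cytokines in fibroblasts, macrophages and tumor cells.

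Tumor libraries held between 31810461 and 54008259 counts. Levels are given in CPM, counts scaled by TMM-adjusted library size, and 1 CPM rested on at least 29.7 counts. Il1a was the scarcest member, with between 0 and 27 counts in untreated primary tumors, and its folds are the least precise. Muscle transcripts varied widely between tumors: the summed level of 9 skeletal muscle markers ran from 55.6 to 7978 CPM in unirradiated primary tumors and from 12.7 to 82287 CPM in irradiated ones. Primary tumor 4 of the 0 Gy anti-PD-1 group stood apart for several members. Values without it are given for some of the calls and folds that it moved, and not for Il1r1. In whole tumors, fewer cells of a type and less RNA per cell cannot be told apart.

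Promoter windows matched 9 members, all but Osm, and are shown for the 5 whose window held the AP-1 motif TGANTCA. The windows are the 250 bases before the RefSeq transcription start on GRCm38.p6, written 5′ to 3′ on the strand of the gene, with motif matches in capitals. They lie at chr5:30012864-30013113 (Il6, plus strand), chr11:4257318-4257567 (Lif, plus), chr7:4778142-4778391 (Il11, minus), chr2:129309973-129310222 (Il1a, minus) and chr2:24336610-24336859 (Il1rn, plus).
Il6: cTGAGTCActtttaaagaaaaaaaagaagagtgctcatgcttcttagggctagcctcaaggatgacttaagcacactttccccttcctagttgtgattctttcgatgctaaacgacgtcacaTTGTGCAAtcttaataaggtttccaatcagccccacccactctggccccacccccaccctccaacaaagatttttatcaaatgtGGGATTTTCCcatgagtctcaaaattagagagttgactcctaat
Lif: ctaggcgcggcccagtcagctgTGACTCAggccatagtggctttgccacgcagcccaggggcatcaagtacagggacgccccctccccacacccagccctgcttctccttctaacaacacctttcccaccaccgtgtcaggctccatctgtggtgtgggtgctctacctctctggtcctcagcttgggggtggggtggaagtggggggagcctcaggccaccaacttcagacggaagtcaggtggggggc
Il11: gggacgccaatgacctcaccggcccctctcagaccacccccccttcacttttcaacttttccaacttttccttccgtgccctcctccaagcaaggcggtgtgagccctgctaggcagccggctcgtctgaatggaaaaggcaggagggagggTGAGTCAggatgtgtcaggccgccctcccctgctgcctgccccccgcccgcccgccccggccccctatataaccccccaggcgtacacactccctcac
Il1a: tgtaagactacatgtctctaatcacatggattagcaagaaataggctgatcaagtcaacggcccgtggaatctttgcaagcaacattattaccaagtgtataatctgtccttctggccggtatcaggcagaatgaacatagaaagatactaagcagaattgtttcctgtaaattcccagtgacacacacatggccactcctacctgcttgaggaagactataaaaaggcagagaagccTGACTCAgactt
Il1rn: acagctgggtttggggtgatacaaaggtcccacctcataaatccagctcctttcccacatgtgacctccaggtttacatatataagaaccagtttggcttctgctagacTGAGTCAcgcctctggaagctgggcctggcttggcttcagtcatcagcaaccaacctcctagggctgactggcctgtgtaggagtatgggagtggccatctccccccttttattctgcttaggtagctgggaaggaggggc

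On either strand, the AP-1 motif was found in 6.75% of 32851 RefSeq promoter windows of this length. The match lay 249 bases before the start in Il6, 228 in Lif, 98 in Il11 and 12 in Il1a, and that of Il1rn is marked in its line. The Il6 window also held a match to the C/EBP motif TTGCNNAA on the opposite strand (9.56% of windows), and a match to the NF-kB motif, 44 bases before the start (3.9% of windows). Il1r2 held a match to the STAT motif TTCNNNGAA (7.02% of windows), and the 2 windows of Il1r1 held a C/EBP and an NF-kB match. The window of Il1b and that of Osmr held none of the 4 motifs. The other listed starts of Il11 and Il1rn held no match either. A match describes these letters and is no measure of binding.

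Genes lay on GRCm38 at chromosome 2, 129299610 to 129309972 (Il1a), 129364570 to 129371139 (Il1b) and 24336853 to 24351494 (Il1rn). The receptors Il1r1 (40225080 to 40317257) and Il1r2 (40074079 to 40125231) neighbor each other on chromosome 1. Lif (4257557 to 4272514) and Osm (4236420 to 4241026) lie side by side on chromosome 11. Il6 is on chromosome 5 (30013114 to 30019981), Il11 on chromosome 7 (4772373 to 4782859) and Osmr on chromosome 15 (6813577 to 6874969). Il1a, Il1b, Il1r1 and Il1r2 overlap other annotated genes (Gm14023, Il1bos, Gm38070, and Gm16894 with Gm37347), and with no stated strand setting for the counting, their counts are uncertain to that extent.

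Per kilobase of exon, Il1b was the most abundant member in unirradiated primary tumors at 10.4 ± 14.1 CPM per kilobase (SD, n = 16), and Il1a the least at 0.0788 ± 0.0938. Il1r1 (7.95) and Osmr (5.72), the receptor of oncostatin M, followed Il1b, and Il1rn stood at 1.98 CPM per kilobase. In irradiated primary tumors Il1b (26.6 ± 22.2, n = 16), Il1rn (13.8 ± 5.76) and Il1r2 (13.4 ± 13.9) held the first 3 ranks. Il1b was again first in irradiated transplants, at 68.9 ± 32.2 CPM per kilobase (n = 8), followed by Il1rn at 22.4 ± 6.08.

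**Figure D1:**
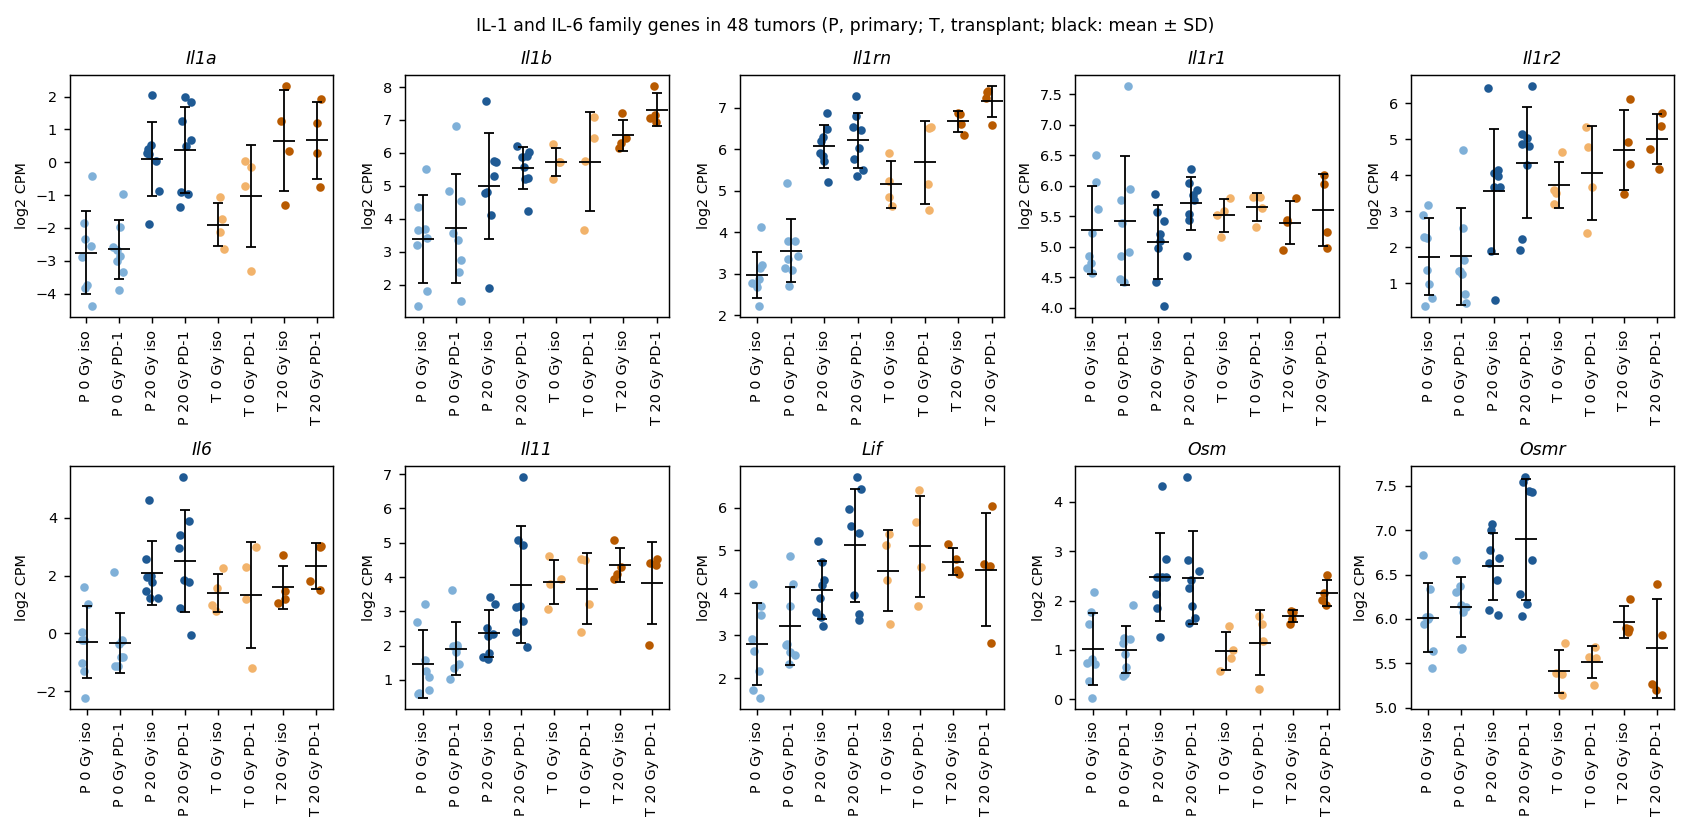
Level of each member (log2 CPM, y axis) in 48 tumors of 8 groups (x axis: P, primary; T, transplant; iso, isotype; PD-1, anti-PD-1); points are tumors and black bars mean ± SD. For Il1rn no point of the 16 irradiated primary tumors lies below a point of the 16 unirradiated ones, while Il1r1 shows no such shift.

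Radiation was the treatment that moved these genes in primary tumors. Averaged over both antibodies, 9 of the 10 members were higher at 20 Gy than at 0 Gy, against 16.8% of all tested genes called higher, and the median log2 fold change of the members was 1.67. The exception was Il1r1, the signaling receptor of IL-1. The members called spanned both cytokines of IL-1, the antagonist and decoy, and all 4 cytokines that use gp130.

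Among the ligands, Il1a ran from 0 to 0.704 CPM with a median of 0.100 in 16 unirradiated primary tumors and from 0.221 to 4.07 with a median of 1.22 in 16 irradiated ones. It was 9.81-fold higher after radiation, a log2 fold change of 3.29 ± 0.50 (SE; adjusted p = 2.52e-06). Il1b ran from 2.48 to 111.8 CPM (median 11.3) without and from 3.70 to 192 CPM (median 43.3) with radiation. These ranges overlapped, and its log2 fold change was 1.40 ± 0.42 (adjusted p = 0.0101). Without primary tumor 4 of the 0 Gy anti-PD-1 group the change of Il1b was 1.90, and without primary tumor 3 of the 20 Gy isotype group, its highest irradiated tumor, 1.05 (adjusted p = 0.0419).

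Both brakes of the pathway rose. Il1rn ran from 4.60 to 36.4 CPM (median 8.74) in unirradiated and from 37.3 to 154 CPM (median 69.2) in irradiated primary tumors. These groups did not overlap, although the gap between them was under 1 CPM. Such a separation was seen for 8 of 19327 genes (0.0414%), and Il1rn was the only member among them. Its log2 fold change of 2.83 ± 0.24 had the smallest adjusted p of the members (1.76e-11). Il1r2 ran from 1.23 to 25.7 CPM (median 2.50) at 0 Gy and from 1.41 to 89.9 CPM (median 17.1) at 20 Gy, with overlap and a log2 fold change of 2.39 ± 0.47 (adjusted p = 0.000147). Without primary tumor 4 of the 0 Gy anti-PD-1 group, which held 25.7 CPM, the log2 change of Il1r2 was 2.91. Il1r1 had medians of 33.7 and 45.0 CPM and mean log2 CPM of 5.35 and 5.39 at 0 and 20 Gy. Its log2 fold change in the fit was -0.18 with a 95% interval from -0.65 to 0.30. Primary tumor 4 of the 0 Gy anti-PD-1 group held 200 CPM of Il1r1 (nearest tumor of its group 61.4), so the sign of this change is not settled.

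Per kilobase, the decoy Il1r2 exceeded the signaling receptor Il1r1 in 0 of 16 unirradiated primary tumors and in 12 of 16 irradiated ones. The median ratio of Il1r2 to Il1r1 was 0.300 at 0 Gy and 1.37 at 20 Gy. In transplants Il1r2 exceeded Il1r1 in 4 of 8 tumors at 0 Gy and in 8 of 8 at 20 Gy, with medians of 0.981 and 2.00. The ratio of Il1b to Il1rn had a median of 3.84 in unirradiated and 1.90 in irradiated primary tumors. It ranged from 0.959 to 10.3 and from 0.205 to 4.73, so that most tumors of both doses lay in a shared range.

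The cytokines that use gp130 followed. Il6, a cytokine of the acute phase response, ran from 0.167 to 4.28 CPM (median 0.753) at 0 Gy and from 0.910 to 42.5 CPM (median 3.66) at 20 Gy, 7.58-fold higher in the fit (log2 2.92 ± 0.48, adjusted p = 1.08e-05; log2 3.33 without primary tumor 4 of the 0 Gy anti-PD-1 group). Osm, made mainly by myeloid and T cells, had medians of 1.79 and 5.37 CPM (log2 1.67 ± 0.27, adjusted p = 6.31e-06). Lif had medians of 6.85 and 19.0 CPM (log2 1.61 ± 0.34, adjusted p = 0.000398). For Il11, a cytokine of stromal cells, the medians were 2.81 and 6.09 CPM (log2 1.68 ± 0.39, adjusted p = 0.000867), and without primary tumor 5 of the 20 Gy anti-PD-1 group, which held 121.2 CPM, the log2 change was 1.21 (adjusted p = 0.00426). Osmr moved least of the 9, from a median of 66.2 to 102.3 CPM (log2 0.72 ± 0.15, adjusted p = 0.000256). For each of Il6, Osm, Lif, Il11 and Osmr, ranges at 0 and 20 Gy overlapped.

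Several marker lists moved with this result. In irradiated primary tumors 6 of 8 neutrophil markers were higher and none lower (median log2 2.23), with summed levels of 11.1 to 397 CPM at 0 Gy and 32.6 to 896 CPM at 20 Gy. The granule genes Ngp and Camp, which mark immature neutrophils, were at 0 in some unirradiated primary tumors and were the 2 markers not called. Of 10 monocyte and macrophage markers 8 were higher (median 0.73), and of 9 skeletal muscle markers 8 were higher (median 2.53). With the mean level of the muscle list as a covariate, 9 members were still called and the log2 change of Il1rn was 2.85 (adjusted p = 3.23e-11). The part of neutrophils and of monocytes and macrophages in the result was not tested.

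Within each antibody, fewer members passed. With isotype, 7 of 10 were higher at 20 Gy (9.19% of genes), all but Il1r1, Il11 and Lif. Without primary tumor 3 of the 20 Gy isotype group, the count was 3: Il1a, Il1rn and Osm. Il1b (log2 1.11, adjusted p = 0.195), Il1r2 (1.48, 0.102), Il6 (1.72, 0.0595) and Osmr (0.58, 0.0697) lost their call without that tumor. It held 192 CPM of Il1b, 85.6 of Il1r2, 24.3 of Il6 and 20.0 of Osm, and its neutrophil markers summed to 789 CPM. Osmr (adjusted p = 0.0487 with all tumors) also lost its call without any of 10 other tumors, and Il1b without untreated primary tumor 1, 2 or 8. By limma voom, Il1b (adjusted p = 0.0726) and Il1r2 (0.0994) missed the threshold, as did Il1b with the 16 tumors of this comparison alone (0.0707) and Osmr with no low-count filter (0.0579). Under anti-PD-1, 8 of 10 were higher at 20 Gy (7.92% of genes), all but Il1b and Il1r1. The log2 change of Il1b was 0.996, with a 95% interval from -0.198 to 2.19 (adjusted p = 0.287). Unirradiated tumor 4 held 111.8 CPM of Il1b, against a median of 11.04 CPM in its group. Il1b was not tested without that tumor in this comparison, so its missing call is not settled. Il11 reached a log2 change of 2.65 ± 0.56 there (adjusted p = 0.00171), and 1.68 (adjusted p = 0.0142) without irradiated tumor 5. Without unirradiated tumor 4, the log2 change went from 2.44 to 3.48 for Il1r2 and from 3.33 to 4.15 for Il6, and without irradiated tumor 6 that of Il6 was 2.52. With the 16 tumors of this comparison alone, Il1r2 (adjusted p = 0.0605) and Osmr (adjusted p = 0.0517) missed the threshold.

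The combination of 20 Gy and anti-PD-1 against untreated primary tumors called the 9 members once more (11.4% of genes), with Il1r1 left out. The folds ran from 1.96 for Osmr to 10.3 for Il1a, with Il6 at 10.0, Il1rn at 9.71 and Il11 at 7.96. Single tumors moved 3 of these: on the log2 scale Il11 went from 2.99 to 2.04 without irradiated tumor 5, Il6 from 3.33 to 2.55 without irradiated tumor 6, and Il1a from 3.37 to 4.22 without untreated tumor 4. Il1b (log2 1.76 ± 0.60, adjusted p = 0.0358) lost its call without any of 6 tumors, untreated primary tumors 1, 2, 3, 7 and 8 and primary tumor 4 given both treatments. This comparison and radiation under isotype share the 8 untreated primary tumors as control.

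In transplants, radiation called 2 of the 10 members over both antibodies, Il1a and Il1rn, against 5.85% of genes called higher. The median log2 fold change of the members was 0.60. Il1rn measured 28.7, 37.3, 60.1 and 24.9 CPM in untreated transplants and 115.4, 80.9, 97.7 and 116.9 CPM after 20 Gy with isotype. With anti-PD-1, Il1rn measured 92.2, 23.1, 90.9 and 35.6 CPM at 0 Gy and 151, 96.1, 168 and 167 CPM at 20 Gy. The 4 irradiated tumors lay above the 4 unirradiated tumors under each antibody, but over both antibodies the doses overlapped, and its log2 fold change was 1.36 ± 0.32 (adjusted p = 0.00361). Il1a measured 0.429, 0.252, 0.180 and 0.112 CPM untreated and 5.0, 1.21, 0.356 and 2.36 CPM after 20 Gy with isotype. Its log2 fold change over both antibodies was 2.42 ± 0.67 (adjusted p = 0.0162), and 2.07 (adjusted p = 0.0544) without the first of those irradiated tumors.

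No member separated the 8 irradiated from the 8 unirradiated transplants without overlap, as 2.83% of genes did. Within isotype (1.82% of genes) and within anti-PD-1 (0.538% of genes) the edgeR test called 0 members. The members with an unadjusted p under 0.05 were Il1a (log2 3.19) and Il1rn (1.44) with isotype and Il1rn (1.27) with anti-PD-1. Of all 19327 genes, 2335 with isotype and 2540 with anti-PD-1 had such a p, so these member counts were near the share of all genes. DESeq2 called 2 and 0 members in these comparisons, and limma voom 1 in each. The combination against untreated transplants called Il1rn alone (4.13% of genes), 3.85-fold higher (log2 1.95 ± 0.46, adjusted p = 0.00768; 0.055 without untreated transplant 4).

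Il6, Lif and Il11 gave small fold changes with wide intervals in transplants. Il6 measured 1.67, 4.72, 2.93 and 1.91 CPM untreated and 6.42, 2.00, 2.69 and 2.23 CPM after 20 Gy with isotype, and its log2 fold change over both antibodies was 0.39 with a 95% interval from -0.89 to 1.67. For Lif the fold change was -0.23 (-1.19 to 0.73) and for Il11 0.32 (-0.74 to 1.38). Lif measured 19.8, 42.0, 34.7 and 9.64 CPM in untreated transplants and 35.4, 21.8, 27.7 and 23.1 CPM after 20 Gy with isotype, with no separation. Il1b had a log2 change of 1.01 (-0.18 to 2.20), Il1r2 of 0.94 (-0.34 to 2.23), Osm of 0.81 (0.06 to 1.56, adjusted p = 0.206) and Osmr of 0.39 (-0.03 to 0.81). Of 8 neutrophil markers, 1 was higher and 2 (Camp and Ngp) were lower in irradiated transplants, and 4 of 10 monocyte and macrophage markers were higher.

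**Figure D2:**
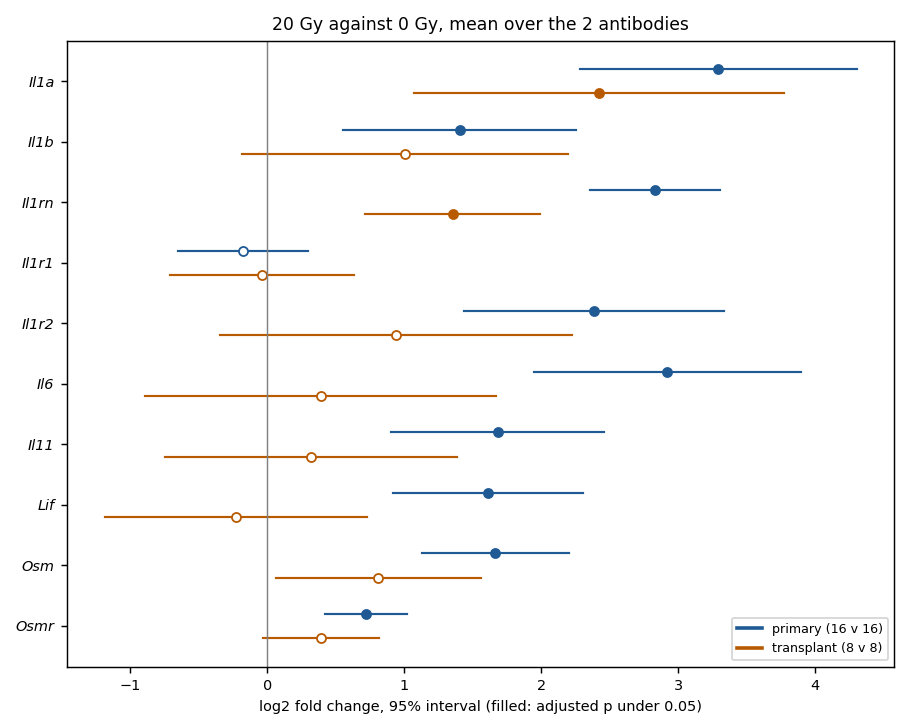
Log2 fold change at 20 Gy against 0 Gy (x axis) of each member (y axis), averaged over both antibodies, in primary tumors (blue, 16 against 16) and transplants (orange, 8 against 8), with 95% intervals; filled points passed an adjusted p of 0.05. The 9 filled blue points lie between 0.72 and 3.29, and the only filled orange points are Il1a and Il1rn.

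A call in primary tumors and none in transplants does not show a difference between models, so the difference was tested as an interaction. The edgeR test called 0 members and 5 genes in all, 3 higher (0.0155% of genes) and 2 lower. At an unadjusted p under 0.05 there were 4 members, beside 1652 of all 19327 genes. All 4 members had a smaller response in transplants. They were Il1rn (log2 difference -1.48 ± 0.38, adjusted p = 0.149), Il6 (-2.53 ± 0.79, adjusted p = 0.235), Lif (-1.84 ± 0.59, adjusted p = 0.246) and Il11 (-1.36 ± 0.65, adjusted p = 0.564). DESeq2 called Il1rn (adjusted p = 0.0447) and limma voom called 0 members. Without primary tumor 4 of the 0 Gy anti-PD-1 group, edgeR called Il1rn too, at -1.67 (adjusted p = 0.0337).

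Among untreated tumors (0 Gy with isotype), transplants held more of 3 members than primary tumors, and none less, against 3.88% of genes called higher. Il1rn ran from 4.60 to 17.5 CPM (median 7.06) in 8 untreated primary tumors, and the 4 untreated transplants, given above, all exceeded that range. Its log2 fold change was 2.17 ± 0.37 (adjusted p = 0.000151). Il11 measured 13.98, 24.7, 15.3 and 8.39 CPM in transplants and 1.47 to 9.17 CPM (median 2.21) in primary tumors (log2 2.18 ± 0.62, adjusted p = 0.0196), with 1 transplant inside the primary range. Lif was at the threshold (log2 1.67 ± 0.56, adjusted p = 0.0474), with primary tumors from 2.86 to 18.5 CPM. Leaving out any of 9 of the 12 tumors ended the call of Lif, as did limma voom (adjusted p = 0.0745) and no low-count filter. Adding the library labelled parental tumor to the primary tumors ended it too (adjusted p = 0.188), but the markers of that library, given below, go against its label. Without untreated transplant 2 the count was 1 member, Il1rn, and without untreated primary tumor 4 it was 4, with Il1b added.

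Il1r2 was the other member whose untreated groups did not overlap, a separation seen for 2.87% of genes. It measured 9.09, 25.1, 11.2 and 11.9 CPM in untreated transplants and at most 8.97 CPM in untreated primary tumors, but its log2 fold change of 1.80 ± 0.75 missed the threshold (adjusted p = 0.117; 0.0405 with the 12 tumors of this comparison alone). Il1b measured 53.1, 77.0, 52.3 and 36.6 CPM in untreated transplants, of which the lowest lay below the highest untreated primary tumor at 46.0 (log2 1.89 ± 0.69, adjusted p = 0.0699). Il1b passed with the muscle covariate (adjusted p = 0.0469), by limma voom (0.0297) and by DESeq2 (0.0499). Beside these results, 2 of 8 neutrophil markers (Mmp8 and Ngp) were higher in untreated transplants (median log2 2.34), with summed levels of 68.6 to 302 CPM against 14.3 to 83.2 CPM in untreated primary tumors. Of 7 fibroblast markers 2 were lower (median -1.15), as were 2 of 4 smooth muscle and pericyte markers (median -1.46), and the 9 skeletal muscle markers had a median of 2.13. The part of these cell types in the result was not tested, apart from the muscle covariate.

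Under anti-PD-1 alone, 2 members were higher in transplants (3.39% of genes), Il1rn (log2 2.16 ± 0.37, adjusted p = 0.000205) and Lif (1.93 ± 0.56, adjusted p = 0.0258). The count was 6 when primary tumor 4 of that group was left out, with Il1b (log2 2.53, adjusted p = 0.00963), Il1r2 (2.99, 0.00583), Il6 (2.68, 0.0183) and Il11 (2.22, 0.0209) added, and 1 without transplant 1 or without transplant 4. After 20 Gy with isotype the edgeR test called 0 members higher or lower (2.47% of genes higher), with Il11 closest (log2 1.92 ± 0.62, adjusted p = 0.0627), and DESeq2 and limma voom called 1 each. At an unadjusted p under 0.05 there were 3 members in that comparison, Il11, Osm and Osmr, beside 3599 of all 19327 genes. After 20 Gy with anti-PD-1, 0 members were higher in transplants by edgeR (3.04% of genes). There Osmr was lower (3.72% of genes lower), with 56.5, 38.4, 36.7 and 84.1 CPM in transplants and 65.6 to 194 CPM (median 137.4) in primary tumors (log2 -1.28 ± 0.27, adjusted p = 0.0053). The call was lost without transplant 3 of that group (adjusted p = 0.0661) and with the 12 tumors of this comparison alone (adjusted p = 0.148).

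Averaged over the 4 treatments, 5 members were higher in transplants (15.7% of genes higher). These were Il1b (log2 1.52 ± 0.35, adjusted p = 0.000589), Il1rn (1.42 ± 0.18, adjusted p = 7.17e-08), Il11 (1.30 ± 0.31, adjusted p = 0.00103), Il1r2 (1.15 ± 0.38, adjusted p = 0.0148) and Lif (0.88 ± 0.28, adjusted p = 0.0133). Osmr was lower (-0.81 ± 0.13, adjusted p = 6.45e-06; 19.1% of genes lower). The share of members higher exceeded the background and that of members lower did not. Il1r1 had a log2 difference of 0.02 (-0.39 to 0.43) and Il6 of 0.37 (-0.41 to 1.14). Beside this, 6 of 7 fibroblast markers were lower and 1 higher in transplants, 3 of 8 neutrophil markers were higher, and of 10 monocyte and macrophage markers 2 were higher and 1 lower; their part in the result was not tested.

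**Figure D3:**
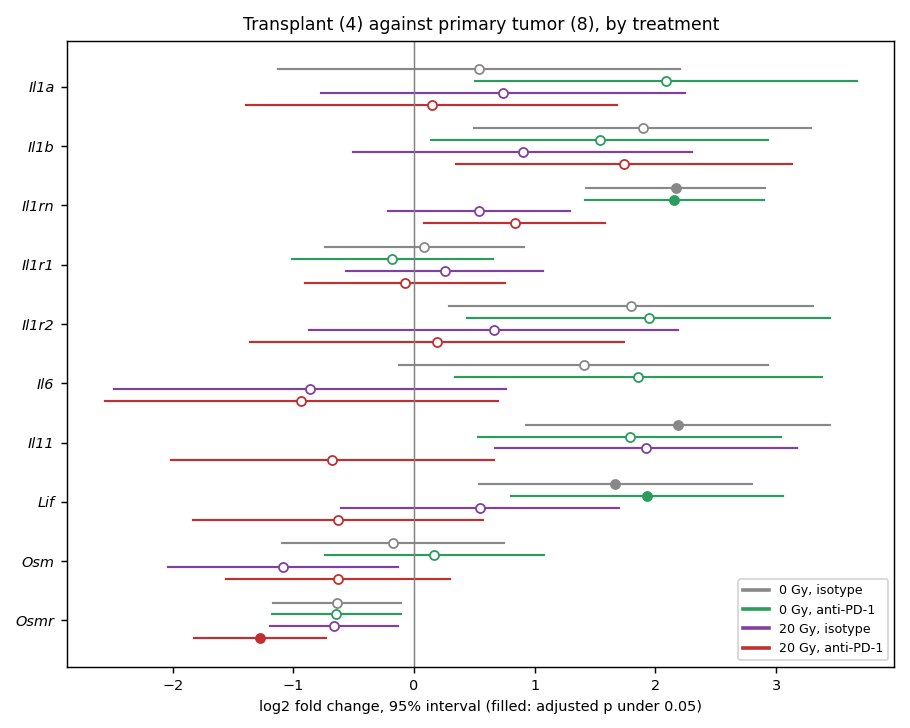
Log2 fold change of 4 transplants against 8 primary tumors (x axis) for each member (y axis) under each treatment (colors), with 95% intervals; filled points passed an adjusted p of 0.05. Il1rn and Lif pass in both unirradiated treatments, Il11 in the untreated one, and Osmr lies below 0 in all 4.

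No member passed the edgeR test of anti-PD-1 against isotype at either dose in either model. In all 4 comparisons edgeR called 0 genes (0%) among 19327 tested, while between 0.678% (transplants, 0 Gy) and 10.1% of genes (primary tumors, 20 Gy) had an unadjusted p under 0.05. The members among these were Il1rn in primary tumors at 0 Gy (log2 0.69 ± 0.32, adjusted p = 1) and Il11 and Lif in primary tumors at 20 Gy. With 1 library left out, the log2 change of Il1rn at 0 Gy ran from 0.29 to 0.94. Il11 ran from 3.01 to 10.7 CPM (median 4.91) after 20 Gy with isotype and from 3.81 to 121.2 CPM (median 8.78) after 20 Gy with anti-PD-1 (log2 2.28 ± 0.55, adjusted p = 0.177 by edgeR). Without the tumor at 121.2 CPM the log2 change was 1.29 (adjusted p = 0.365). Lif had medians of 16.5 and 44.8 CPM (log2 1.37 ± 0.48, adjusted p = 0.356). DESeq2 called Il11 here (adjusted p = 0.018) and 44 genes in all, against 6, 1 and 1 genes in primary tumors at 0 Gy and transplants at 0 and 20 Gy. Limma voom called 0 genes in the 4 comparisons.

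The spread among the 8 irradiated primary tumors given anti-PD-1 was wide, and the same tumors were high for several gp130 cytokines. Tumor 6 held 42.5 CPM of Il6, 106.03 of Lif, 22.6 of Osm, 30.3 of Il11 and 194 of Osmr, the highest of its group for all but Il11. Tumor 5 held 121.2 CPM of Il11, 87.4 of Lif, 14.7 of Il6 and 174 of Osmr. Tumor 2 held 62.8 CPM of Lif and 33.8 CPM of Il11, behind tumors 5 and 6 for Lif and behind tumor 5 for Il11. In contrast, tumors 1 and 4 held 10.2 and 11.4 CPM of Lif and 6.48 and 3.81 CPM of Il11.

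The order of the 8 groups differed by gene. Mean log2 CPM of Il1rn ran from 2.97 in untreated primary tumors to 7.15 in irradiated transplants with anti-PD-1. In the order of Il1rn all irradiated groups lay above all unirradiated groups, and of its 7 neighboring pairs, 2 had means further apart than the larger of the SDs of that pair. Il1b was lowest in untreated primary tumors (3.38) and highest in irradiated transplants with anti-PD-1 (7.31), and its 4 primary groups lay below its 4 transplant groups. For Osmr the order was the reverse: its 4 transplant groups lay below the 4 primary groups, from 5.41 to 6.90. At the border between models the means were close. Il1b had 5.53 ± 0.64 (SD) in irradiated primary tumors with anti-PD-1 and 5.73 ± 0.44 in untreated transplants. Osmr had 5.97 ± 0.18 in transplants after 20 Gy with isotype and 6.01 ± 0.39 in untreated primary tumors. For Il1a, Il1r1, Il6 and Lif, no neighboring groups differed by more than the larger of their SDs.

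Over the 48 tumors, the genes most like each member by Spearman's rho were sought among genes with an average log2 CPM of at least 0. Il1rn was most like Ccl4 (rho 0.938), a macrophage chemokine, Cd300lf (0.935), an inhibitory receptor of myeloid cells, and Htra4 (0.933). Il1r2 was most like Arg2 (0.933), Tnfsf14 (0.909) and the neutrophil collagenase Mmp8 (0.896). For Il6 they were the neutrophil chemokines Cxcl1 (0.842) and Cxcl2 (0.819) and Gla (0.792). Il1b was closest to Rab20 (0.903), Prdx5 (0.896) and Trem3 (0.895), and Il1a to Ccl5 (0.874), Ccrl2 (0.856) and Il1rn (0.837). For Lif they were Ier3 (0.864), Junb (0.824) and Socs3 (0.797), the last a feedback inhibitor of gp130 signaling. Il11 was closest to Procr (0.900), Ptgs2os2 (0.865) and Fgf7 (0.857), and Osm to B430306N03Rik (0.825), the chemokine Ccl7 (0.825) and A530064D06Rik (0.805). Il1r1 had the weakest neighbors, with C1qtnf1 at 0.651, C1galt1 at 0.620 and Ahr at 0.617, and Osmr was closest to Pld3 (0.775), Slc38a7 (0.739) and Gfpt2 (0.737). These values describe 48 tumors that share treatments and models. Within the 16 transplants alone, rho was 0.129 for Osmr with Gfpt2, 0.206 for Il1r1 with Ahr and 0.385 for Il1r1 with C1qtnf1. It was 0.485 for Lif with Socs3, 0.506 for Il11 with Fgf7 and 0.579 for Il6 with Gla. The pairs of Il1rn held there, with rho of 0.915, 0.888 and 0.844 for Il1rn with Ccl4, Cd300lf and Htra4.

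Members were also set against 4 marker lists within the 16 unirradiated and within the 16 irradiated primary tumors, 80 relations in all. Il1r2 followed the mean level of 8 neutrophil markers in irradiated primary tumors with Pearson's r = 0.971 and Spearman's rho = 0.956 (n = 16, adjusted p = 0.0008 for both; the unadjusted permutation p of 1e-05 is the lowest that 100000 resamples allow). Leaving out the 2 tumors farthest from the median of the list gave r = 0.963. At 0 Gy the relation was weaker, with r = 0.692 (permutation p = 0.0033, adjusted p = 0.038) and rho = 0.591 (p = 0.017, adjusted p = 0.17). It rested on the 2 farthest tumors, since r was 0.299 without them. Il6 followed the neutrophil list at 0 Gy (r = 0.788, permutation p = 0.00029, adjusted p = 0.0085; rho = 0.771, p = 0.00087, adjusted p = 0.035; r = 0.581 without the 2 farthest). Osmr ran against the monocyte and macrophage list at 20 Gy (r = -0.704, permutation p = 0.00099, adjusted p = 0.016; rho = -0.744, p = 0.0013, adjusted p = 0.035; r = -0.664 without the 2 farthest). In all, 10 relations passed by Pearson's r and 3 by Spearman's rho, and none of them involved skeletal muscle markers. Those that passed by r alone included Il11 with the neutrophil list at 0 Gy (r = 0.778, adjusted p = 0.0085; rho = 0.679, adjusted p = 0.082). Il1r1 with the fibroblast list at 20 Gy was another (r = 0.772, adjusted p = 0.011; rho = 0.685, adjusted p = 0.082). Without the 2 farthest tumors, r was 0.569 and 0.544 for these.

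**Figure D4:**
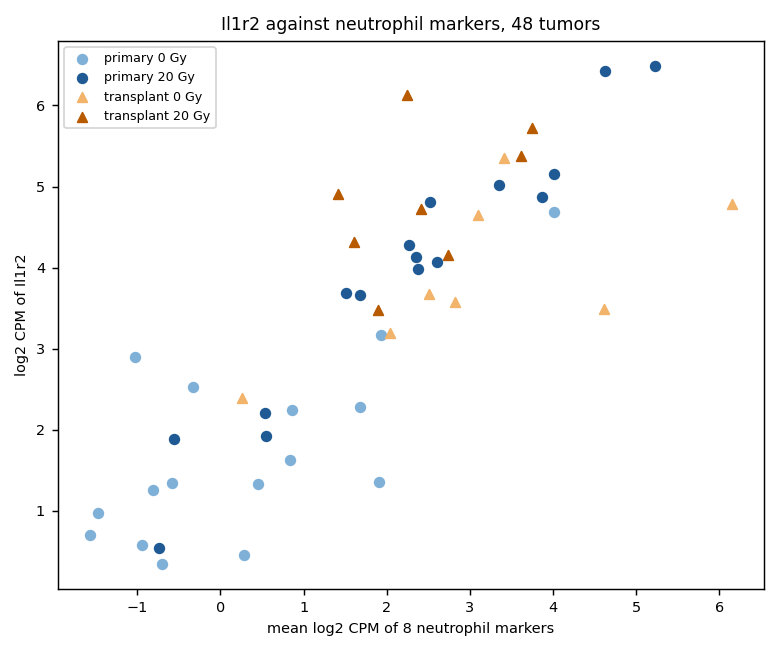
Log2 CPM of Il1r2 (y axis) against the mean log2 CPM of 8 neutrophil markers (x axis) in 48 tumors, with primary tumors as circles and transplants as triangles, light at 0 Gy and dark at 20 Gy. The 16 dark circles follow a line (r = 0.971), while some transplants lie off it.

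Partners and targets of both families were described by lists. Of 23 other genes of the IL-1 family and its signaling, 20 were tested. In irradiated primary tumors 11 were higher and none lower (median log2 0.64), led by Il36g (3.55, adjusted p = 0.000532), an epithelial IL-1 family cytokine, Il18bp (2.54, adjusted p = 3.71e-10), the soluble inhibitor of IL-18, and Casp1 (1.30, adjusted p = 7.45e-06), the protease that matures IL-1β. In irradiated transplants 7 were higher (median 0.44), led by Il18bp (1.59), Irak3 (1.33), a brake on the receptor complex, and Casp1 (1.32). Over the 4 treatments, 9 were higher in transplants, led by Sigirr (1.34), Il18bp (1.10) and Il18rap (0.84), and 3 were lower: Il33 (-2.10), an alarmin, Il1rap (-0.82), the partner chain of IL-1R1, and Tollip (-0.28). The median of all tested genes was near 0 in each comparison. For this list and the 2 below, 16.8% of all genes were higher in irradiated primary tumors and 5.85% in irradiated transplants. Over the 4 treatments, 15.7% of all genes were higher and 19.1% lower in transplants.

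Of 17 other genes of the gp130 family, 10 were higher and 1 lower in irradiated primary tumors (median 0.53), among them Il27 (2.10) and Socs3 (1.10, adjusted p = 2.7e-05). The one that was lower, Il11ra1 (-0.54, adjusted p = 0.00555), encodes the receptor of IL-11. In irradiated transplants 5 were higher (median 0.34), led by Ebi3 (1.60), Il27 (1.56) and Il6ra (0.78). In transplants over all treatments 5 were higher (15.7% of all genes), led by Il27 (1.43), Socs3 (0.72) and Ctf1 (0.42). The 4 that were lower included the shared subunit Il6st (-0.49), Lifr (-0.52) and Il11ra1 (-0.46), and Jak1 (-0.16). That count was near the share of all genes called lower (19.1%).

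Of 26 genes known to respond to IL-1 or IL-6, 21 were higher in irradiated primary tumors and none lower (median 1.15). Their leaders were the chemokines Cxcl2 (3.23, adjusted p = 2.98e-05) and Ccl20 (2.77) and the acute phase gene Saa3 (2.45). Ccl20 was scarce, at 0 to 1.02 CPM (median 0.107, scaled over all 50 libraries) in the 48 tumors. In irradiated transplants 7 were higher and none lower (median 0.40), led by the collagenase Mmp13 (2.76, adjusted p = 0.000232), Ccl7 (1.98) and Ccl2 (1.54). Over all treatments 12 were higher in transplants and none lower (median 0.25), led by Mmp13 (2.98), Ptgs2 (1.99), the inducible cyclooxygenase, and Hp (1.89). Mmp13 ran from 3.17 to 31.6 CPM in unirradiated primary tumors and from 38.9 to 708 CPM in irradiated transplants. These groups differed in both model and dose, and untreated transplants had a median of 31.9 CPM (scaled over all 50 libraries).

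The 2 libraries of line 402230 had no replicate, and levels below are scaled over all 50 libraries. The library labelled as the parental primary tumor held few reads of immune, endothelial and muscle markers. It held 0 counts of all 6 T and NK cell markers, a summed level of 15.0 CPM of monocyte and macrophage markers against at least 1517 in every tumor, and 0.568 CPM of endothelial markers against at least 114.97. The library labelled as the cell line held 1734 and 248 CPM of these lists, within the tumors' levels. These markers go against both labels, so the libraries are called by label only.

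The library labelled parental tumor held Il1r1 at 43.3 CPM (1981 counts), Lif at 34.9 CPM (1598 counts) and Il11 at 6.58 CPM (301 counts), all within the range of the 48 tumors. Osmr stood at 7.12 CPM (326 counts), below every tumor (at least 34.9 CPM), and Il1rn at 0.743 CPM (34 counts), below every tumor (at least 4.55). It held 0 counts of Il1b and Il1a, which allows up to 0.0656 CPM (a floor of 3 counts), 3 counts of Il6 and 1 count each of Il1r2 and Osm. The library labelled cell line held Il1b at 27.3 CPM (1325 counts), Il1rn at 11.9 (579 counts), Il1r2 at 8.70 (422 counts), Osmr at 84.4 (4097 counts), Il11 at 15.2 (740 counts), Lif at 30.4 (1475 counts) and Il6 at 1.59 (77 counts). All 7 of those levels lay within the range of the tumors, while Osm at 0.927 CPM (45 counts) lay just below it. In Lif and Il1r1 (39.9 CPM in the library labelled cell line) the 2 libraries were close to each other, while Il1b, Il1r2 and Osm had between 0 and 1 count in the library labelled parental tumor. Floors and counts cover counting error only.

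**Figure D5:**
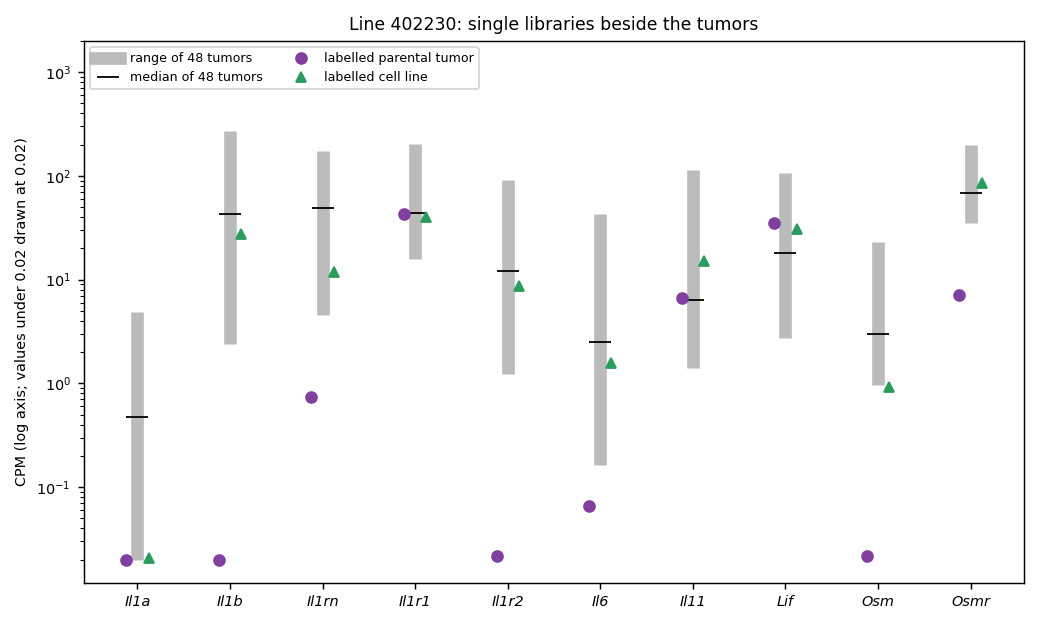
Level of each member (CPM, log axis) in the library labelled parental tumor (circles) and the library labelled cell line (triangles) of line 402230, beside the range (grey bars) and median (black) of 48 tumors; values under 0.02 are drawn at 0.02. Circles for Il1r1, Il11 and Lif lie within the bars and those for Il1b, Il1rn, Il1r2, Il6, Osm and Osmr below them.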

How the data were processed

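Bulk RNA was measured in 48 tumors and 2 libraries of line 402230. Per the labels, the submitters' processing notes and the study's methods, the authors made stranded mRNA libraries, trimmed reads with Trimmomatic 0.36, aligned them to mm10 with STAR and counted reads per GENCODE M17 gene with HTSeq. The deposited values were raw whole-number counts per gene, neither normalized nor pooled. How the counting treated strand is not given in the sources used here.

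Identifiers were matched without version to GENCODE M21 on GRCm38, and 37408 of 37469 had a symbol. Differences were tested with the quasi-likelihood test of edgeR 4.0.16 in R 4.3.3 (filterByExpr, TMM factors, robust dispersions, 1 mean per group, 48 tumors). P-values were two-sided, with a Benjamini-Hochberg adjustment across 19327 genes, and an adjusted p under 0.05 was a call. CPM used TMM-scaled totals, log2 CPM a prior count of 2, and levels per kilobase the union of exons. P-values measure the spread between tumors, which in transplants come from 1 line. There were 18 contrasts, including 1 interaction of radiation with model. Alternatives were DESeq2 1.42.0, limma 3.58.1 voom, RLE scaling, no low-count filter, a muscle covariate, the groups of each contrast alone, the library labelled parental tumor added to untreated primary tumors, and leaving out each library. The 136 pairs of libraries within groups had Spearman's rho between 0.839 and 0.985, and each pair differed beyond sampling noise. Replicate numbers only name libraries. The tests were checked on simulated counts.

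Named genes were the members, up to 3 called genes per list and direction with the largest change, and the 3 genes most like each member; Il6st and Jak1 were named after their values were seen, as were libraries singled out. A gene that this rule would name is not reported here. The members and lists were chosen with earlier results of these data known.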

Additional observations from a re-analysis of the deposited data

Results flagged for a closer look

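Of 80 sets of 4 or 8 tumors (10 members in 8 groups), 8 held a tumor whose gap to its nearest neighbor was large against the range of the group, where chance gives about 1 in 20. In the 0 Gy anti-PD-1 group of primary tumors, tumor 4 stood out in this way for 4 members, with 36.4 CPM of Il1rn (nearest tumor 13.8), 200 CPM of Il1r1 (nearest 61.4), 4.28 CPM of Il6 (nearest 0.808) and 12.3 CPM of Il11 (nearest 4.03). Its neutrophil markers summed to 397 CPM. Primary tumor 3 of the 20 Gy isotype group held 24.3 CPM of Il6 (nearest 5.95). Primary tumor 6 of the 20 Gy anti-PD-1 group held 22.6 CPM of Osm (nearest 7). Transplant 2 of the 20 Gy anti-PD-1 group was lowest for Il11 at 4.01 CPM (nearest 20.4), and transplant 4 of the 20 Gy isotype group was highest for Osmr at 74.8 CPM (nearest 59.4). The origin of these gaps was not tested.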

How the results depend on the processing

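The 495 and 1600 values below cover only members whose main edgeR test in that comparison had an unadjusted p under 0.05. None of these values reversed. Il1r1 had no such p in any comparison, so its direction was not followed under the alternatives. Of 495 values of single members under other settings, 455 kept their direction and side of the threshold, 11 lost and 29 gained a call. Of 1600 values with 1 library left out, 1547 kept both, 38 lost and 15 gained a call. The 9 members called for radiation in primary tumors were 9 under every alternative and with each of 32 libraries left out. Leaving out 1 library moved the member count from 3 to between 1 and 4 for untreated transplants against primary tumors, from 2 to between 1 and 6 under anti-PD-1 alone, from 0 to between 0 and 1 after 20 Gy with isotype and from 1 to between 0 and 1 after 20 Gy with anti-PD-1. It moved the count from 7 to between 3 and 7 for radiation in primary tumors with isotype, from 0 to between 0 and 1 in transplants with isotype, from 2 to between 1 and 2 in transplants over both antibodies, from 0 to between 0 and 1 for the difference between models and from 1 to between 0 and 1 for the combination in transplants. Leaving out primary libraries was chosen after seeing the data.

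With the muscle covariate the counts were 5 for transplants against primary tumors under anti-PD-1 alone, 1 after 20 Gy with isotype and 2 for the combination in transplants. With the groups of each contrast alone they were 4, 1 and 4 in these comparisons, 0 after 20 Gy with anti-PD-1 and 2 for radiation in transplants with isotype. Limma voom gave 1 after 20 Gy with isotype and 1 for radiation in transplants with each antibody. DESeq2 gave 1 after 20 Gy with isotype, 2 for radiation in transplants with isotype, 1 for the difference between models, 1 for anti-PD-1 in primary tumors at 20 Gy and 2 for the combination in transplants. For untreated transplants against primary tumors the count of 3 was 2 with no low-count filter and with the library labelled parental tumor added, and 4 with the muscle covariate, by DESeq2 and in its own groups. The cause of these moves was not tested. Adding the library labelled parental tumor ended the call of Lif over the 4 treatments (log2 0.75, adjusted p = 0.0511). The markers of that library go against its label, so this setting is a poor check on primary tumors. None of the other alternatives, and none of the 48 fits with 1 library left out, ended that call.

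Counts over all genes moved by over 1.5 times as follows. For radiation in transplants with anti-PD-1, 0.595% of the 19327 tested genes were called, and the count was 55 genes with no low-count filter, 228 with the muscle covariate, 327 by voom, 479 by DESeq2 and 1 in its own groups. For transplants against primary tumors, 942 became 1450 by DESeq2 after 20 Gy with isotype, and 1307 became 2047 by DESeq2 and 2 in its own groups after 20 Gy with anti-PD-1. In their own groups, 3534 became 2154 and 2158 became 805 for radiation in primary tumors with isotype and anti-PD-1, 3635 became 1396 for the combination in primary tumors, and 372 and 1398 became 1047 and 2432 for radiation in transplants with isotype and over both antibodies. DESeq2 moved 372 to 599 for radiation in transplants with isotype. The difference between models went from 5 to 9 with the muscle covariate and 65 by DESeq2. No paired analysis was possible because the labels give no replicate numbers.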

Other observations

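Other marker lists gave the following counts. Of all 19327 genes, 3253 were higher and 2743 lower in irradiated primary tumors, and 1131 higher in irradiated transplants. Over the 4 treatments, 15.7% of all genes were higher and 19.1% lower in transplants. Of 6 T and NK cell markers, the edgeR test called Ncr1 higher in irradiated primary tumors (log2 0.82, adjusted p = 0.0491). Over the 4 treatments, Cd8a (log2 1.96), Cd3d (1.66) and Cd3e (1.34) were higher and Klrb1c (-1.27) was lower in transplants. Of 5 mast cell markers, Cpa3 and Tpsb2 were lower in irradiated primary tumors (log2 -1.39 and -1.53) and in transplants over the 4 treatments (-1.23 and -1.27). Of 4 smooth muscle and pericyte markers, Cspg4 and Cnn1 were lower in transplants (log2 -2.06 and -3.87). In irradiated primary tumors Ccr7, 1 of 5 dendritic cell markers, was higher (log2 0.93), as was Myh11 of the smooth muscle list (log2 1.49), and Cspg4 was lower (log2 -1.15). Of 4 endothelial markers, Kdr was higher in irradiated transplants (log2 0.98) and Cdh5 lower in transplants over the 4 treatments (log2 -0.61). Of the 2 keratinocyte markers tested, Krt14 had log2 values of -1.05 in irradiated primary tumors (adjusted p = 0.217) and -1.59 in transplants over the 4 treatments (adjusted p = 0.0515).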
